A study of Mus musculus with 42 samples.

Results

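The response of conventional CD4+ T cells (Tconv) in the mouse spleen was followed 8 h after an injection of KT3, an antibody against CD3, by setting the 2 Tconv arrays of that time against the 2 Tconv arrays of untreated mice. These 4 arrays, of 42 in the series, were chosen by their titles, which give the cell type, the in vivo setting, the time and an array number, and the 8 h and 0 h arrays were paired by that number. Both groups came from female NOD mice of 8 weeks that carry a Foxp3-IRES-GFP reporter, in which cells that express Foxp3 also make green fluorescent protein. NOD is an inbred strain that develops autoimmune diabetes. The 8 h group received KT3 intravenously, and the 0 h group was not treated. In both groups the spleen cells were sorted on a MoFlo instrument as CD4+ and GFP-, and negative for B220, CD8a, CD11b and CD11c. The 8 h array numbered 1 and the 0 h array numbered 2 are labelled as double-sorted, and the 8 h array numbered 2 and the 0 h array numbered 1 as single-sorted. Pair 1 therefore set double-sorted cells against single-sorted cells, and pair 2 did the opposite.

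The wider series measured Tconv and regulatory T cells after KT3 in mice and in splenocyte cultures, at 0, 2, 8, 24 and 72 h, on Affymetrix ST1.0 gene arrays. Each label speaks of a mouse without saying that the arrays of 1 group came from separate animals. The p-values below rest on the spread between arrays within groups, pooled over all arrays of the series and not only those compared. That spread may therefore be technical, and 2 arrays per compared group limit the precision. Values are log2 intensities, and a difference is 8 h minus 0 h on that scale, with its standard error (SE). A gene is said to rise or fall only where limma's moderated test, fitted across all arrays with the array number as a block, gave a two-sided Benjamini-Hochberg adjusted p under 0.05.

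CD3 forms part of the T cell receptor (TCR) complex, and an antibody that binds it triggers the receptor without antigen. Resting T cells are small and make little protein. Signals through the TCR lead within hours to calcium, MAP kinase and NF-kB signalling, to the transcription factor Myc and cytokine genes, and to growth in size before the first division. At the same time, the genes that hold naive T cells at rest and let them circulate through lymphoid organs are switched off.

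The label was checked against marker genes. Of 8 T cell markers 7 were measured, and their mean level was 10.85 and 10.85 on the 8 h arrays, against 11.35 and 11.42 on the 0 h arrays. Thy1 fell by 1.27 (SE 0.29, adjusted p = 0.00189), and Cd4 fell by 0.68 (SE 0.23, adjusted p = 0.0318), a call that was lost when any 1 of the 4 arrays was left out. Foxp3, the defining factor of regulatory T cells, was at 7.20 and 7.02 at 8 h, against 7.73 and 7.72 at 0 h, and its difference of -0.62 (SE 0.27, adjusted p = 0.101) did not pass, though it did with the 11 Tconv in vivo arrays alone (adjusted p = 0.00684) and without the in vitro Tconv 0 h array numbered 1 (adjusted p = 0.0477). All 4 Foxp3 values were above the medians of their arrays, although the cells were sorted as GFP-. The 7 markers of regulatory T cells, Foxp3 among them, averaged 7.08 and 7.02 at 8 h, against 6.73 and 6.29 at 0 h. Il2ra and Ctla4 of this list rose, with differences of 3.98 and 1.82, and none of the 7 fell. No tested marker of B cells, plasma cells, macrophages, neutrophils, dendritic cells, erythroid cells or platelets passed, although 3 of 6 dendritic cell and 2 of 4 plasma cell markers were too dim on most arrays to be tested. None of the 4 NK cell markers was bright enough for a test, and their mean was 4.06 and 3.86 at 8 h, against 4.45 and 4.22 at 0 h. B cell markers averaged 6.83 and 5.50 at 8 h, against 6.91 and 5.66 at 0 h, and macrophage markers 6.29 and 5.34 at 8 h, against 6.74 and 5.53 at 0 h, so both lists were higher on the arrays numbered 1 of each group. The CD8 genes averaged 7.76 and 7.25 at 8 h, against 7.27 and 6.91 at 0 h, and their part in the results was not tested. Since these are sorted populations measured in bulk, fewer cells that express a gene and less of its RNA per cell cannot be told apart, for Thy1 and for all genes that follow.

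At 8 h, 2992 of 12425 tested genes differed from 0 h, which is 24.1% of them. Of these genes 2022 rose (16.3%) and 970 fell (7.81%). A difference of at least 2-fold was reached by 1125 of the risen genes (9.05% of all tested) and by 450 of the fallen ones (3.62%). The split between the directions depended on how arrays were scaled to each other: 67.6% of the calls were rises on the deposited scale, 54.5% after quantile normalization and 80.6% after each array was centred on its median. The median difference of all tested genes was -0.06 on the deposited scale, -0.04 after quantile normalization and 0.10 after centring, and list medians below are to be read against it. After both rescalings 1485 of the risen genes (73.4%) and 550 of the fallen genes (56.7%) were still called.

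The 2 pairs gave like results. All 2022 risen genes were higher, and all 970 fallen genes lower, in both pairs, although the test used the same 4 arrays. The risen genes had a median difference of 1.05 in pair 1 and 1.08 in pair 2, and the fallen genes -0.96 in pair 1 and -0.99 in pair 2. Over all tested genes the pair differences, which share no array, correlated at r = 0.926, given as a description because genes are not independent. Without overlap between the groups were 2018 of the risen genes and 967 of the fallen ones, beside 32.5% of all tested genes that did not overlap with 8 h higher and 34.3% with 8 h lower. When each of the 4 arrays was left out in turn, 1028 risen genes (50.8%) and 405 fallen genes (41.8%) kept their call every time. Every gene named below kept its call with any 1 array left out, unless the text says otherwise. Named genes are the 15 largest changes in each direction and up to 3 largest called changes in each direction of each list, and further genes that were added after their values were seen.

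**Figure D1:**
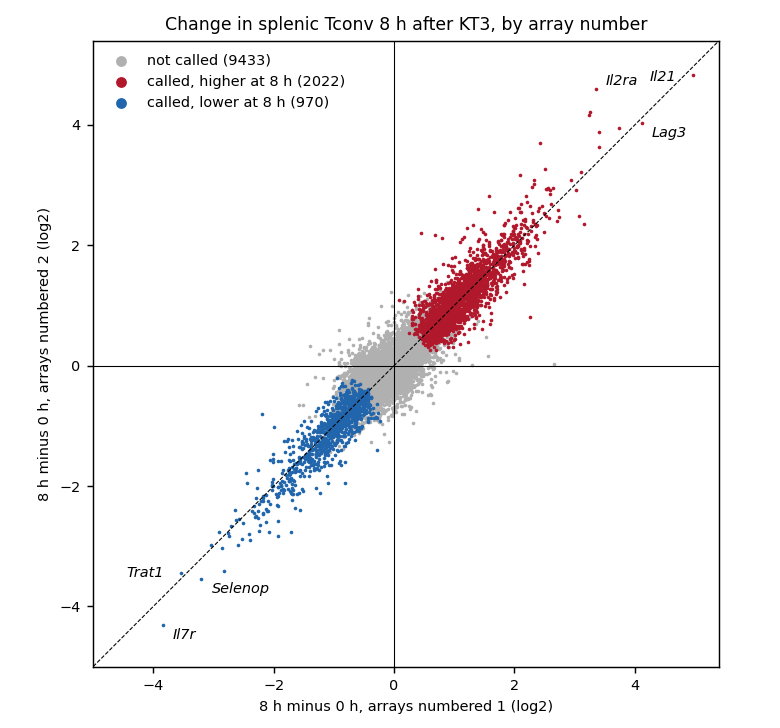
Each point is 1 of the 12425 tested genes, with the difference between 8 h and 0 h on the arrays numbered 1 (horizontal axis, log2) and on the arrays numbered 2 (vertical axis, log2); red points rose (2022), blue points fell (970), grey points did not pass (9433), and the dashed line marks equal differences. Risen and fallen genes lie along the line in opposite corners, with Il21 and Lag3 at the upper end and Il7r at the lower end.

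The typical rise and fall were of like size. Risen genes had a median difference of 1.06 (quartiles 0.80 and 1.41) and a median level of 9.10 at 8 h, against 7.99 at 0 h. Fallen genes had a median difference of -0.97 (quartiles -1.33 and -0.71) and a median level of 7.49 at 8 h, against 8.53 at 0 h. Taken over all of them, few risen genes were near the floor before treatment: 3 were below the array median on both 8 h arrays and 165 (8.16%) on both 0 h arrays, beside 16.0% of all tested genes on both 0 h arrays. Many of the largest rises did start below the array median, as given further on. Among the fallen genes 148 (15.3%) were below the array median on both 8 h arrays, against 31 (3.2%) on both 0 h arrays, and the first share is near the 17.3% of all tested genes below the median on both 8 h arrays.

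The 15 genes with the largest rises were Il21, Lag3, Il2ra, Irf4, Sema7a, Tnip3, Ccr8, Tnfrsf9, Prelid2, Il2, Cxcr5, Gzmb, Nr4a1, Hspd1 and Tnfsf4. Il21, a cytokine that helps B cells, had 9.49 and 9.70 at 8 h, against 4.52 and 4.87 at 0 h. It rose by 4.90 (SE 0.20, adjusted p = 3.54e-14). Both 0 h values lay well below the array median, where the size of a rise depends on the processing, and over the alternatives it ranged between 3.79 and 5.12. Lag3, an inhibitory receptor that binds MHC class II, had 11.23 and 11.02 at 8 h, against 7.10 and 6.99 at 0 h. Its rise was 4.08 (SE 0.29, adjusted p = 1.12e-09), nearly the same in both pairs. Il2ra, the alpha chain that gives the IL-2 receptor its high affinity, had 9.59 and 10.13 at 8 h, against 6.23 and 5.52 at 0 h, a rise of 3.98 (SE 0.29, adjusted p = 1.36e-09). Irf4, a transcription factor needed for effector differentiation, had 10.27 and 10.51 at 8 h, against 6.54 and 6.55 at 0 h, and rose by 3.84 (SE 0.27, adjusted p = 8.82e-10). Il2, the T cell growth factor, was the gene among these with the widest spread at 8 h, at 7.33 and 8.46 there, against 4.91 and 4.76 at 0 h. Its rise was 3.06 (SE 0.25, adjusted p = 1.22e-08).

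The other rises of this group were on the surface, in signalling and in the mitochondrion. Sema7a, a membrane-anchored semaphorin, rose by 3.73, and Tnip3, an inhibitor of NF-kB signalling that binds the deubiquitinase A20, by 3.71. The chemokine receptors Ccr8 and Cxcr5 rose by 3.65 and 3.01. Tnfrsf9 (4-1BB, a costimulatory receptor) rose by 3.52 and Tnfsf4 (OX40 ligand) by 2.78. Gzmb, the protease granzyme B, rose by 2.97, with 8.59 and 8.45 at 8 h, against 5.57 and 5.53 at 0 h. Nr4a1, an orphan nuclear receptor induced by TCR signals, rose by 2.88, and Hspd1, the mitochondrial chaperonin HSP60, by 2.80. Prelid2, of a family that carries lipids between mitochondrial membranes, rose by 3.16. In all 15 genes both 8 h values were above both 0 h values. Besides Il21, both 0 h values of Il2ra, Irf4, Tnip3, Ccr8, Il2, Cxcr5, Gzmb and Tnfsf4 were below the array median. The size of such rises depends on the processing as well. Over the alternatives the rise of Il2 ranged between 2.17 and 3.56 and that of Tnfsf4 between 1.96 and 2.96.

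The 15 genes with the largest falls were Il7r, Trat1, Selenop, Tmem71, Dapl1, Card6, Adh1, Txnip, S1pr1, Cd7, Ifi203, Rasgrp2, St8sia4, Cnga1 and Slc9a9. Il7r, the receptor chain through which IL-7 keeps naive T cells alive, had 7.28 and 7.38 at 8 h, against 11.12 and 11.68 at 0 h. It fell by 4.07 (SE 0.41, adjusted p = 1.64e-07), about as far as Lag3 rose. Trat1, an adaptor that associates with the TCR complex, had 4.89 and 5.79 at 8 h, against 8.43 and 9.24 at 0 h, and fell by 3.49 (SE 0.61, adjusted p = 0.000143). Both its 8 h values lie in the dim range, below the array median, as do those of Selenop, Dapl1, Card6, St8sia4 and Cnga1. The size of these falls depends on the processing, and the difference of Cnga1 ranged between -2.77 and -1.72 over the alternatives. Selenop, the plasma selenium carrier selenoprotein P, had 5.87 and 5.79 at 8 h, against 9.08 and 9.33 at 0 h, and fell by 3.37 (SE 0.40, adjusted p = 1.68e-06). S1pr1, the sphingosine-1-phosphate receptor by which T cells leave lymphoid organs, had 8.34 and 8.88 at 8 h, against 11.08 and 11.71 at 0 h, and fell by 2.79 (SE 0.32, adjusted p = 7.91e-07). Txnip, an inhibitor of thioredoxin and of glucose uptake, had 9.63 and 9.17 at 8 h, against 12.22 and 12.16 at 0 h. Its fall was also 2.79, with a smaller error (SE 0.27, adjusted p = 9.43e-08), and all 4 values were well above the array median.

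Among the remaining large falls, Dapl1 fell by 3.01, with 6.14 and 6.36 at 8 h, against 9.18 and 9.35 at 0 h. Tmem71, a membrane protein, fell by 3.12, and Card6, a protein with a caspase recruitment domain, by 2.94. Adh1, an alcohol dehydrogenase, fell by 2.84, Cd7, a surface glycoprotein of T and NK cells, by 2.78, and Ifi203, of the interferon-inducible Ifi200 family, by 2.71. Rasgrp2, an exchange factor that activates Rap1 and with it integrins, fell by 2.69. St8sia4, which builds polysialic acid, fell by 2.64, Cnga1, a cyclic nucleotide gated channel, by 2.61, and Slc9a9, an endosomal sodium-proton exchanger, by 2.59. In all 15 genes both 8 h values were below both 0 h values.

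**Figure D2:**
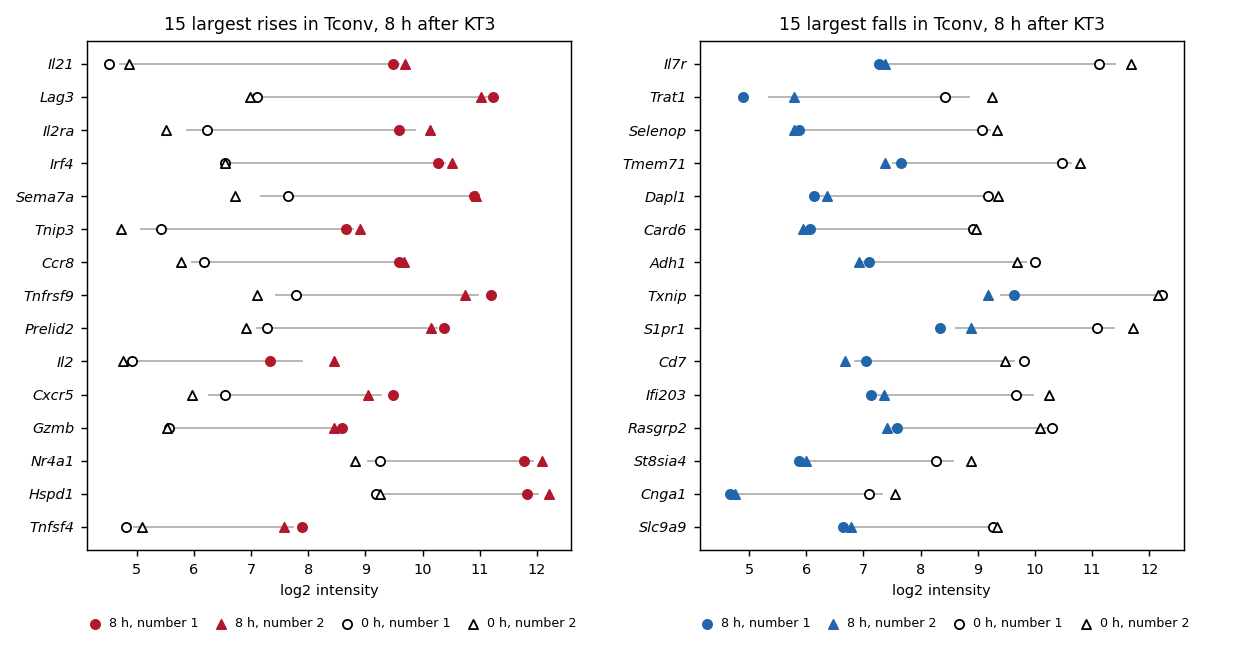
Log2 intensity on each array (horizontal axes) of the 15 genes that rose most (left panel) and the 15 that fell most (right panel); filled symbols are 8 h, open symbols 0 h, circles arrays numbered 1 and triangles arrays numbered 2, and grey lines join the means of both times. In every gene the filled and open symbols do not overlap.

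Beyond these genes, 46 lists were read, with 981 entries, of which 900 were matched by name to a transcript cluster with 1 gene name and 875 were bright enough to be tested. Their counts stand beside the 16.3% of all tested genes that rose and the 7.81% that fell. Among the lists of the machinery for making proteins, that of ribosome biogenesis held the highest share of rises. Of 30 genes for ribosome biogenesis 29 rose, none fell and 1 did not pass, with a median of 1.79. Wdr12, which acts in the maturation of the large ribosomal subunit, rose by 2.24 (SE 0.23, adjusted p = 1.66e-07), and Nop2, an rRNA methyltransferase of the nucleolus, by 2.17 (SE 0.23, adjusted p = 3.29e-07). Nop58, a core protein of box C/D small nucleolar ribonucleoproteins, rose by 2.15 (adjusted p = 0.00693), but not without the 8 h array numbered 2 (adjusted p = 0.0857) or the 0 h array numbered 1 (adjusted p = 0.0986). The member that did not pass was Ubtf, a factor for RNA polymerase I, with a difference of 0.55 (SE 0.21, adjusted p = 0.0597). It passed in several alternatives, among them the 22 in vivo arrays (adjusted p = 0.00136), the block within each cell type and setting (0.0454) and the fit without the in vitro Tconv 0 h array numbered 1 (0.000915). Of 13 nucleolar RNA helicases 10 rose, with a median of 1.20, among them Ddx21 (1.70), Ddx56 (1.57) and Dhx33 (1.47).

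Aminoacyl-tRNA synthetases, which load tRNAs with amino acids, rose in 16 of 18 cases (median 1.51). Tars had 9.63 and 9.61 at 8 h, against 7.50 and 7.91 at 0 h, and rose by 1.91 (SE 0.23, adjusted p = 2.15e-06). The valine and cysteine enzymes Vars and Cars rose by 1.80 and 1.77. Translation initiation factors rose in 14 of 19 cases (median 1.18), with Eif5a at 12.89 and 12.96 at 8 h, against 11.11 and 10.88 at 0 h (difference 1.93, SE 0.25, adjusted p = 3.93e-06), and Eif2b3, a subunit of the exchange factor for eIF2, at a rise of 2.02. The mitochondrial ribosome followed, with 30 of 37 proteins higher, none lower and a median of 1.14. Mrps6 rose by 2.08 (SE 0.22, adjusted p = 2.56e-07).

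The proteins of the cytosolic ribosome itself stood apart in these counts, since 3 of 41 rose, none fell and 38 did not pass. Their median was 0.28 on the deposited scale, but -0.02 after quantile normalization and 0.44 after centring, so that no direction can be given for them. The risen members were Rpl14 (0.99), Rps12 (0.63) and Rps2 (0.45), and leaving out the 8 h array numbered 1, the 8 h array numbered 2, the 0 h array numbered 1 or the 0 h array numbered 2 left 0, 0, 0 and 1 of them. Rps2, of the small subunit, was at 13.46 and 13.38 at 8 h, against 13.01 and 12.93 at 0 h.

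Genes for folding and breaking down proteins rose as well. Of 28 heat shock, chaperonin and endoplasmic reticulum folding genes 22 rose and none fell (median 1.36). Hsph1, a nucleotide exchange factor of the Hsp70 system, rose by 2.74 (SE 0.41, adjusted p = 2.86e-05), and Hspe1, the partner of Hspd1, by 2.25 (SE 0.33, adjusted p = 1.83e-05). The cytosolic chaperone Hsp90aa1 had 12.85 and 13.32 at 8 h, against 10.87 and 11.09 at 0 h, and rose by 2.11 (SE 0.45, adjusted p = 0.00113). Proteasome subunits rose in 28 of 30 cases with a median of 1.31, among them Psmd1 (1.90), Psmd7 (1.78) and Psmc5 (1.61). That count was 18 without the 8 h array numbered 2 and 19 to 21 without any 1 of the others.

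Lists of metabolic genes differed in their share of rises. Polyamine and nucleotide synthesis genes rose in 16 of 20 cases, with a median of 1.31. Odc1, the rate-limiting enzyme of polyamine synthesis, had 11.26 and 11.20 at 8 h, against 8.94 and 8.12 at 0 h, and rose by 2.70 (SE 0.20, adjusted p = 1.67e-09). Srm, the next enzyme of that pathway, rose by 2.51, and Cad, which starts pyrimidine synthesis, by 2.26. Of 22 genes for amino acid transport, ATF4 targets and one-carbon metabolism 15 rose (median 1.16). Shmt2, which passes carbon units from serine to folate in mitochondria, had 10.87 and 10.68 at 8 h, against 8.25 and 8.00 at 0 h, a rise of 2.65 (SE 0.29, adjusted p = 6.37e-07). Psat1 of serine synthesis rose by 2.30, Mthfd1 of folate metabolism by 2.23, Asns, the asparagine synthetase, by 2.08 and Slc7a5, a transporter of large neutral amino acids, by 1.77. The ATF4 target Trib3 fell by 0.76 (adjusted p = 0.00786), a call lost without the 8 h array numbered 2 or the 0 h array numbered 1.

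Glycolysis and glucose uptake genes rose in 12 of 19 cases (median 0.88) and fell in none. Tpi1, the triose phosphate isomerase, had 11.51 and 11.54 at 8 h, against 9.20 and 8.52 at 0 h, and rose by 2.67 (SE 0.34, adjusted p = 3.61e-06). Hk2, the hexokinase of growing cells, rose by 2.25 and Pgam1 by 1.88. Respiratory chain subunits rose in 25 of 40 cases (median 0.97), with Cycs, cytochrome c, at a rise of 2.20 and Ndufb6 of complex I at 2.00. Enzymes of the TCA cycle and of pyruvate entry rose in 9 of 24 cases (median 0.66), Idh3a by 1.60 and Fh1 by 1.46. Both counts rested on all 4 arrays, with 13, 15, 14 and 14 respiratory genes and 6, 5, 5 and 5 TCA genes called without the 8 h arrays numbered 1 and 2 and the 0 h arrays numbered 1 and 2 in turn.

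Among lipid genes the share of rises differed between the lists. Cholesterol synthesis genes rose in 11 of 19 cases (median 0.75), and this count was 4 without the 8 h array numbered 2 and 7 or 8 without any other. Cyp51 had 8.90 and 9.43 at 8 h, against 7.36 and 7.35 at 0 h, and rose by 1.81 (SE 0.29, adjusted p = 6.98e-05), and Sqle, which makes the first oxygenated intermediate, rose by 1.58. Acaca, the enzyme that commits acetyl-CoA to fatty acid synthesis, rose by 1.72 (SE 0.23, adjusted p = 7.81e-06) and Fasn, the fatty acid synthase, by 1.21, within a list in which 4 of 12 rose, 1 fell and 7 did not pass. Leaving out any 1 array left 2 or 3 of these rises and 0 falls. Of 18 fatty acid oxidation genes 4 rose (median 0.28). Acot7, an acyl-CoA thioesterase, was the one of these 4 that was still called with any 1 array left out, at 11.06 and 10.91 at 8 h, against 8.77 and 8.37 at 0 h, a rise of 2.41 (SE 0.19, adjusted p = 3.99e-09).

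Of 28 DNA replication genes 21 rose, none fell and 7 did not pass (median 1.14). Mcm2, a subunit of the replicative helicase, had 11.07 and 10.73 at 8 h, against 9.00 and 8.66 at 0 h, and rose by 2.07 (SE 0.21, adjusted p = 2.01e-07). Mcm5 of the same complex rose by 1.75, Prim1, a primase subunit, by 1.98 and Rfc4, of the clamp loader, by 1.95. None of 23 mitosis genes passed limma's test in either direction, with 0 higher and 2 lower at an unadjusted p under 0.05, and their median was -0.16, with differences between -0.59 and 0.43. Mki67, which marks cycling cells, had 6.29 and 6.14 at 8 h, against 6.90 and 6.72 at 0 h (difference -0.59, SE 0.27, adjusted p = 0.11). It was called lower when the 11 Tconv in vivo arrays alone were fitted.

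Among 21 genes for G1 cyclins, their kinases and inhibitors 4 rose and 5 fell (median -0.23). The kinases Cdk6 and Cdk4, which drive the passage through G1, rose by 1.86 (SE 0.24, adjusted p = 3.63e-06) and 1.47 (SE 0.26, adjusted p = 0.000143). The inhibitor Cdkn1b (p27) had 8.06 and 8.17 at 8 h, against 9.39 and 9.90 at 0 h, and fell by 1.53 (SE 0.31, adjusted p = 0.000738). Another cluster of Cdkn1b, the more variable one, gave -1.13 and did not pass (adjusted p = 0.0657). Without any 1 of the 4 arrays 1 member stayed lower, and after centring 1 as well.

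Among the histone genes, whose RNA is normally made during DNA replication, falls and no rises were called. Of 12 histone clusters measured none rose, 8 fell and 4 did not pass, with a median of -0.86 and 5 called without any 1 of the arrays. H1f2, a linker histone, had 6.92 and 6.82 at 8 h, against 8.85 and 9.64 at 0 h, and fell by 2.38 (SE 0.28, adjusted p = 1.58e-06). H1f5 had 7.57 and 6.58 at 8 h, against 9.22 and 8.56 at 0 h, and fell by 1.82 (SE 0.32, adjusted p = 0.000146). H4c4 fell by 1.27 (SE 0.25, adjusted p = 0.000423). Histone genes have near-identical copies, so which copy a cluster reads is uncertain.

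The 250 bases before the annotated start of each gene were searched on both strands for 8 short motifs in the 9895 tested genes with a promoter in the RefSeq table (GRCm38.p6). The Mcm2 and H1f5 promoters are shown because both classes of S phase gene hold the same letters while their RNA differed in opposite directions. Those of Cdk4 and Txnip are examples, picked with their direction known, of a risen gene with an E-box and a fallen gene with a forkhead motif. The shares of both motifs among all risen and all fallen genes are given after the sequences. Capitals mark the inverted CCAAT box GATTGG (or CCAATC) in Mcm2 and H1f5, the E-box CACGTG in Cdk4 and the forkhead motif TGTTTAC (or GTAAACA) in Txnip, and no marked sites overlap. The Mcm2 window is chr6:88898781-88899030 on the minus strand, that of H1f5 chr13:21780626-21780875 on the minus strand, that of Cdk4 chr10:127063285-127063534 on the plus strand and that of Txnip chr3:96557707-96557956 on the plus strand.
Mcm2: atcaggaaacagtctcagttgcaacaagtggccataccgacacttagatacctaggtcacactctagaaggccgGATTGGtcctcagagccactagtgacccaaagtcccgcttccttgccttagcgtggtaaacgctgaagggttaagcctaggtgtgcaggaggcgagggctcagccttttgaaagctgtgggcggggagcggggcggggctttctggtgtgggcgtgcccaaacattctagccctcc
H1f5: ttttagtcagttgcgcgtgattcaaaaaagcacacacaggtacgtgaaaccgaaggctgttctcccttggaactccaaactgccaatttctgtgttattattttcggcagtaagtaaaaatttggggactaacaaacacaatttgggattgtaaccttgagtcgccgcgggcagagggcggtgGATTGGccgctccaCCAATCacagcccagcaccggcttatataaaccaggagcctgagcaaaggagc
Cdk4: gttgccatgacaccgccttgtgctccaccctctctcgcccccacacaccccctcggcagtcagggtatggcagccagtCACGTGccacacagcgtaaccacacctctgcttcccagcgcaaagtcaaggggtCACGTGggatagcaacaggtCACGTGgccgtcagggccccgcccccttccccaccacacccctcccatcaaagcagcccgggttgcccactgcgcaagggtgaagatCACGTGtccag
Txnip: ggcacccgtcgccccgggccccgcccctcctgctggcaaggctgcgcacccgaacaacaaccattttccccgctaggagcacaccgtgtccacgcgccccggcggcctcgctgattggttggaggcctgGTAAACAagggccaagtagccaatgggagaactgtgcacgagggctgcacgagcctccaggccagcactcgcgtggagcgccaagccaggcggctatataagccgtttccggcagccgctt

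Mcm2 held 1 inverted CCAAT box and H1f5 held 2, Cdk4 held 4 E-boxes and Txnip 1 forkhead motif. The Txnip window also held 1 inverted CCAAT box, which is not set in capitals, so these letters are not particular to the S phase genes shown. GATTGG was in 13 of 23 DNA replication promoters (56.5%) and in 6 of 12 histone promoters, beside 19.1% of the promoters of all tested genes and 15.1% of all 27025 promoters in the table. Cholesterol synthesis genes held it in 10 of 15 cases (66.7%), heat shock and folding genes in 12 of 23 (52.2%), and mitosis genes, none of which was called, in 12 of 18 (66.7%). The share was 20.7% among risen and 19.1% among fallen genes. CACGTG was in 10.4% of risen and 7.39% of fallen genes, beside 8.43% of all tested and 6.05% of all promoters. TGTTTAC was in 1.61% of risen and 2.51% of fallen genes, beside 2.27% of all tested and 3.09% of all promoters. The interferon response motif was in 2.57% of risen and 4.22% of fallen genes, beside 2.62% of all tested and 3.04% of all promoters, and in 8 of 17 promoters of the interferon-stimulated gene list (47.1%). A loose NF-kB motif was in 60.5% of risen and 63.7% of fallen genes, beside 62.0% of all tested and 45.4% of all promoters. The AP-1 letters TGACTCA or TGAGTCA were in 2.63% and 3.3% of risen and fallen genes (2.98% of all tested, 4.43% of all promoters), the ATF4 letters TGATGNAA in 2.15% and 2.64% (1.91% and 3.53%), and the GC box CCGCCC in 61.9% and 58.7% (57.8% and 32.9%). A match says that these letters are in the window and nothing about a factor that may bind there.

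Among 17 early response factors of the TCR 5 rose, none fell and 12 did not pass (median 0.39). Nr4a3 had 8.91 and 9.26 at 8 h, against 6.66 and 6.60 at 0 h, and rose by 2.46 (SE 0.34, adjusted p = 1.19e-05), and the AP-1 members Fosl2 and Fosl1 rose by 1.41 and 0.92. Myc, the factor that drives growth genes, had 10.74 and 10.98 at 8 h, against 9.22 and 9.23 at 0 h, a rise of 1.64 (SE 0.44, adjusted p = 0.00709) that did not pass after quantile normalization (adjusted p = 0.0518), without the 8 h array numbered 2 (0.0741) or without the 0 h array numbered 2 (0.0505). Egr1, Egr3, Fos and Jun did not pass, with differences of -0.04, -0.07, 0.68 and -0.22, although Fos gained a call in an alternative fit. NF-kB subunits and inhibitors rose in 6 of 11 cases (median 0.95), led by the nuclear inhibitor Nfkbid (1.93) and the subunit precursor Nfkb2 (1.82).

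Effector transcription factors rose in 9 of 19 cases and fell in 1 (median 0.77). Besides Irf4, Bhlhe40, a repressor linked to cytokine production, had 8.60 and 9.17 at 8 h, against 6.51 and 5.99 at 0 h, and rose by 2.63 (SE 0.30, adjusted p = 9.67e-07). Hif1a, the oxygen-regulated factor, rose by 2.40 (SE 0.43, adjusted p = 0.000184), Irf8 by 2.23 and Tbx21, the factor of type 1 helper cells, by 2.08. Maf, Nfil3 and Eomes rose by 1.39, 1.41 and 1.32. Gata3, the factor of type 2 helper cells, fell by 1.08 (adjusted p = 0.0313), a call lost without any 1 of the 4 arrays.

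Of 13 cytokines 5 rose and none fell (median 0.19). Lif, a cytokine of the IL-6 family, had 8.57 and 8.36 at 8 h, against 5.87 and 5.96 at 0 h, and rose by 2.56 (SE 0.36, adjusted p = 1.36e-05). Ifng rose by 1.55 (SE 0.30, adjusted p = 0.000369) and Tnf by 1.41 (SE 0.29, adjusted p = 0.000698). Il4, Il13, Il17a and Il17f did not pass, at 0.08, -0.15, -0.16 and 0.18. Of 7 chemokines none rose and Ccl5 fell by 1.01 (adjusted p = 0.0129), a call lost without the 8 h array numbered 1, the 8 h array numbered 2 or the 0 h array numbered 1.

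Cytokine receptors differed in both directions, with 5 of 23 higher, 7 lower and 11 not passing (median -0.30). The fallen ones numbered 10 after quantile normalization and 6 after centring. Il12rb2 and Il12rb1, the 2 chains of the IL-12 receptor, rose by 2.34 (SE 0.48, adjusted p = 0.000719) and 1.76 (SE 0.21, adjusted p = 1.19e-06). Il2rb, the signalling chain of the IL-2 and IL-15 receptors, rose by 1.39, and Il15ra rose by 0.84. In the other direction, beside Il7r, Il18r1 had 5.78 and 6.58 at 8 h, against 7.79 and 8.18 at 0 h, and fell by 1.80 (SE 0.34, adjusted p = 0.000311). Tgfbr2, the binding receptor of TGF-beta, fell by 1.49 (SE 0.27, adjusted p = 0.000206) and Il17ra by 1.27 (SE 0.26, adjusted p = 0.000687). Il6ra fell by 1.14 (adjusted p = 0.0204), a call lost without any 1 of the arrays.

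Of 18 TNF superfamily receptors and ligands 5 rose and 2 fell (median 0.31), and 1 fall was left without any 1 of the arrays. Tnfrsf4 (OX40), the receptor of Tnfsf4, had 10.70 and 10.18 at 8 h, against 8.39 and 7.76 at 0 h, and rose by 2.37 (SE 0.23, adjusted p = 1.16e-07), and Tnfrsf18 (GITR) rose by 1.19. Tnfrsf26, a further receptor of the family, fell by 1.40 (SE 0.31, adjusted p = 0.00144). Of 9 inhibitory receptors 5 rose and 1 fell (median 1.28). Tigit rose by 1.94 (SE 0.28, adjusted p = 1.77e-05), Ctla4 by 1.82 (SE 0.29, adjusted p = 5.01e-05), Pdcd1 (PD-1) by 1.31 and Cd200 by 1.28. The collagen receptor Lair1 fell by 1.00 (adjusted p = 0.00488), a call lost without the 8 h array numbered 1 or the 0 h array numbered 2.

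Among dual-specificity MAP kinase phosphatases 3 of 10 rose and 1 fell, a fall that was lost without any 1 of the arrays and after centring, while 3 fell after quantile normalization. Dusp5, which acts on ERK, had 10.11 and 10.53 at 8 h, against 8.17 and 7.98 at 0 h, and rose by 2.24 (SE 0.32, adjusted p = 1.42e-05), and Dusp2 rose by 1.49. Of 8 genes for SOCS proteins and their relatives 4 rose, and 3, 2, 2 and 2 were called without the 8 h arrays numbered 1 and 2 and the 0 h arrays numbered 1 and 2 in turn. Cish and Socs1, inhibitors of cytokine receptor signalling, rose by 1.58 and 1.08 and were called each time. Of 20 diacylglycerol kinases, E3 ligases and other brakes on TCR signals 3 rose and 5 fell (median -0.23). Spry1, an inhibitor of the Ras pathway, rose by 2.11 (SE 0.22, adjusted p = 3.2e-07), Spred1 by 1.66 and Cblb, an E3 ligase that limits TCR signals, by 1.42. Pik3ip1, an inhibitor of PI3 kinase, had 6.98 and 6.68 at 8 h, against 9.35 and 9.09 at 0 h, and fell by 2.39 (SE 0.27, adjusted p = 9.65e-07). Rasa3, a Ras and Rap GTPase activating protein, fell by 2.12, Dtx1, an E3 ligase of the Notch pathway, by 1.61 and Dgka, which removes diacylglycerol, by 1.47.

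Of 29 tested genes of the TCR complex and its nearest signalling proteins 3 rose, 7 fell and 19 did not pass, with a median of -0.36, and the fallen ones numbered 15 after quantile normalization and 4 after centring. Without the 8 h arrays numbered 1 and 2 and the 0 h arrays numbered 1 and 2 in turn, 4, 4, 5 and 4 members were called lower and 1, 2, 2 and 2 higher. Themis, which tunes TCR signals in developing T cells, had 6.83 and 7.61 at 8 h, against 9.09 and 9.90 at 0 h, and fell by 2.27 (SE 0.49, adjusted p = 0.00117). The Tec family kinase Txk fell by 2.05 (SE 0.27, adjusted p = 6.43e-06). Rasgrp1, which activates Ras after TCR signals, had 9.23 and 9.65 at 8 h, against 11.08 and 11.39 at 0 h, and fell by 1.79 (SE 0.31, adjusted p = 0.000114). Sla, an adaptor that promotes the loss of TCR from the surface, had 11.24 and 11.30 at 8 h, against 9.95 and 9.87 at 0 h, and rose by 1.36 (SE 0.28, adjusted p = 0.000785). Zap70, the kinase recruited to the receptor, rose by 1.01 (adjusted p = 0.00369), a call lost without the 8 h array numbered 1.

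Of 25 quiescence regulators 1 rose, 11 fell and 13 did not pass (median -0.81), with 17 lower after quantile normalization and 7 after centring. Without the 8 h arrays numbered 1 and 2 and the 0 h arrays numbered 1 and 2 in turn 7, 8, 9 and 7 were called lower. After Txnip the largest fall was that of Sesn1, an inhibitor of mTORC1, which had 7.71 and 7.70 at 8 h, against 9.89 and 10.15 at 0 h, and fell by 2.31 (SE 0.40, adjusted p = 0.000124). Klf2, the factor that sustains S1pr1 and other homing genes, had 9.43 and 9.15 at 8 h, against 10.60 and 10.75 at 0 h, and fell by 1.38 (SE 0.28, adjusted p = 0.000638). Tsc22d3 (GILZ), a glucocorticoid-induced protein, fell by 1.36 and the antiproliferative factor Btg1 by 0.81. Foxo1 and Tob1 did not pass, with differences of -0.82 and -0.76, but did with the 22 in vivo arrays (adjusted p = 0.00014 and 0.00296), with the 11 Tconv in vivo arrays (0.000155 and 0.00109) and without the in vitro Tconv 0 h array numbered 1 (0.000657 and 0.00854), and Foxo1 with the block within each cell type and setting (0.0377) and after quantile normalization (0.000157).

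Factors of naive T cells gave no common direction, with 3 of 17 higher, 4 lower and a median of -0.03 that became 0.13 after centring. Gfi1, a repressor of Il7r, had 8.65 and 8.89 at 8 h, against 6.89 and 7.24 at 0 h, and rose by 1.70 (SE 0.20, adjusted p = 1.31e-06), and Myb rose by 1.35. Lef1 had 10.56 and 10.59 at 8 h, against 11.79 and 11.96 at 0 h, and fell by 1.30 (SE 0.24, adjusted p = 0.000292). It was the member still called lower with any 1 array left out or after centring. Runx1, counted above among the quiescence regulators and not in this list, fell by 0.96 (adjusted p = 0.0109). That call was lost without any 1 array other than the 0 h array numbered 1.

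Homing and egress genes fell in 7 of 18 cases and rose in 2, Ccr8 and Cxcr5, with a median of -0.50. S1pr4, a further sphingosine-1-phosphate receptor, had 8.82 and 8.53 at 8 h, against 10.57 and 10.35 at 0 h, and fell by 1.78 (SE 0.23, adjusted p = 5.15e-06). Cxcr4 fell by 1.51 (SE 0.24, adjusted p = 5.03e-05), Cxcr6 by 1.51 and Ccr9, a receptor for homing to the gut, by 1.33. Ccr7, the receptor for entry to lymph nodes, did not pass, at -0.25, nor did Cxcr3, at -0.68, although each gained a call in an alternative fit. Integrins and adhesion molecules fell in 7 of 17 cases and rose in none (median -0.59), and 7 were called lower without any 1 of the arrays. Pecam1 had 7.90 and 7.62 at 8 h, against 9.97 and 9.92 at 0 h, and fell by 2.18 (SE 0.32, adjusted p = 2.1e-05). Itgb3 fell by 2.16, Itgb7, which pairs with Itga4 for homing to the gut, by 1.99 and Itga4 by 1.94. Selplg (PSGL-1), the ligand of P-selectin, fell by 1.69, as did Sema4a.

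Of 18 RGS proteins and G protein signalling genes 1 rose and 7 fell (median -0.57). Rgs16, which shortens signals of chemokine receptors, had 9.55 and 9.88 at 8 h, against 7.16 and 7.31 at 0 h, and rose by 2.48 (SE 0.24, adjusted p = 1.02e-07). Vipr1, a receptor for vasoactive intestinal peptide, fell by 2.06 (SE 0.33, adjusted p = 5.36e-05) and was 1 of 4, 3, 5 and 3 members called lower without the 8 h arrays numbered 1 and 2 and the 0 h arrays numbered 1 and 2 in turn. Of 15 TGF-beta pathway genes 2 rose and 5 fell (median -0.18), with 3, 3, 4 and 2 lower when those arrays were left out in the same order. Smad4, the common partner of the receptor-activated SMADs, fell by 1.06, while Smad3 rose by 1.10 and Tgif1, a corepressor of SMADs, by 1.47.

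Interferon-stimulated genes fell in 10 of 23 cases and rose in 1 (median -0.74). RIG-I was a planned member but was not matched by name, since the arrays list it as Ddx58. It is not in the counts of this list, although it fell by 2.56. The list held 7 falls without the 8 h array numbered 1, 4 without the 8 h array numbered 2, 2 without the 0 h array numbered 1 and 8 without the 0 h array numbered 2. Irf7, the factor that amplifies interferon production, had 8.05 and 7.67 at 8 h, against 9.39 and 8.73 at 0 h, and fell by 1.20 (SE 0.26, adjusted p = 0.00103). Gbp4, a guanylate binding GTPase, had 7.97 and 8.18 at 8 h, against 9.84 and 9.76 at 0 h, and fell by 1.73 (SE 0.37, adjusted p = 0.00122). Both were called with any 1 array left out. Ifit1 had 6.50 and 6.70 at 8 h, against 8.69 and 7.50 at 0 h, so the 2 arrays of 0 h differed by more than the number 2 pair did. Its fall of 1.49 (SE 0.54, adjusted p = 0.0438) kept its call without the 0 h array numbered 2 and lost it without any 1 of the other 3 arrays. Stat2 fell by 0.99 (adjusted p = 0.00211) and Zbp1 by 0.98 (adjusted p = 0.0022), calls lost without the 0 h array numbered 1. Bst2, the membrane protein tetherin, rose by 1.12 (SE 0.22, adjusted p = 0.000577).

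A list of genes that Tconv express more highly than regulatory T cells at rest was chosen with the 0 h arrays of these data known and is not independent evidence. Of its 12 genes none rose and 10 fell (median -1.32). Besides Trat1 and Dapl1 these included Slc16a5, a monocarboxylate transporter family member. It had 5.85 and 5.65 at 8 h, against 8.17 and 7.98 at 0 h, and fell by 2.33 (SE 0.24, adjusted p = 2.89e-07). Igfbp4, which binds insulin-like growth factors, fell by 1.33 and Treml2 by 1.26.

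Survival and death genes rose in 4 of 15 cases and fell in 1, with a median of -0.02 that was -0.15 after quantile normalization and 0.13 after centring. Gadd45b, a stress protein that acts on MAP kinase signalling, had 10.29 and 9.91 at 8 h, against 7.70 and 7.06 at 0 h, and rose by 2.72 (SE 0.31, adjusted p = 8.95e-07). Of the survival proteins, Bcl2l1 (BCL-XL) rose by 0.95 (SE 0.21, adjusted p = 0.00169), and Bcl2 had 7.94 and 8.22 at 8 h, against 9.46 and 9.59 at 0 h, and fell by 1.45 (SE 0.33, adjusted p = 0.00213). The proapoptotic Bid rose by 1.17. Of 10 p53 targets 4 rose and 1 fell (median 0.50), with 2, 3, 3 and 2 rises when the 8 h arrays numbered 1 and 2 and the 0 h arrays numbered 1 and 2 were left out in turn. The nuclease Aen rose by 1.21 and Zmat3 by 1.13, and the antiproliferative Btg2 fell by 1.47.

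Histone lysine methyltransferases and demethylases rose in 5 of 20 cases and fell in 2 (median -0.27), with 3 rises and no falls left without the 8 h array numbered 2, and 5 falls after quantile normalization. Kdm2b, a demethylase that recruits Polycomb complexes, rose by 1.33, Dot1l by 1.32 and Setdb1 by 1.18. Ezh2, the methyltransferase of Polycomb repressive complex 2, had 9.46 and 9.63 at 8 h, against 8.54 and 8.45 at 0 h, and rose by 1.05 (adjusted p = 0.00419), while its relative Ezh1 had 8.53 and 8.46 at 8 h, against 9.52 and 9.53 at 0 h, and fell by 1.03 (adjusted p = 0.00599). Both calls were lost without the 8 h array numbered 2, and that of Ezh2 also without the 0 h array numbered 1.

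The remaining lists held few calls. Of 8 GIMAP GTPases, regulators of lymphocyte survival, Gimap7 rose by 1.02, a call lost without any 1 of the arrays, and the median was -0.05, or 0.11 after centring. Of 11 genes for MHC class I and antigen processing 1 rose and 1 fell (median -0.34), with the rise lost without any 1 of the arrays and 6 lower after quantile normalization. Nlrc5, the activator of MHC class I genes, fell by 1.02 (SE 0.23, adjusted p = 0.00149). Of 24 autophagy and lysosome genes 1 rose and 3 fell (median -0.09, or 0.07 after centring), and none of the falls was called with any 1 array left out.

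**Figure D3:**
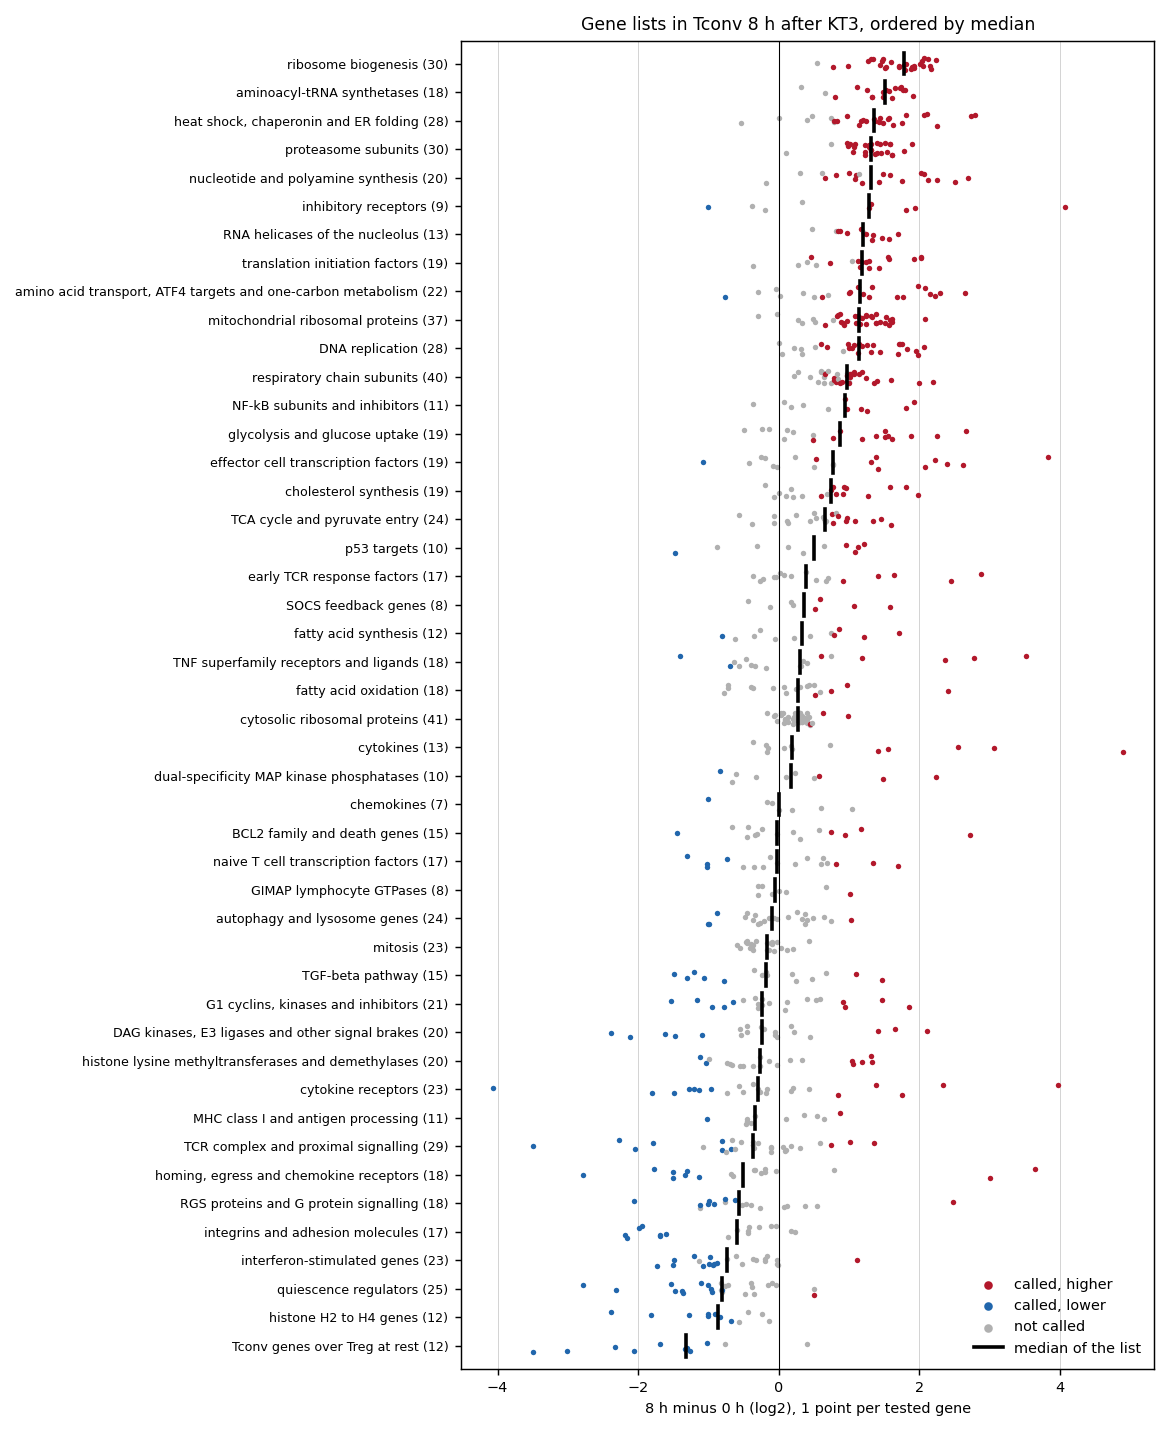
Differences between 8 h and 0 h (horizontal axis, log2) of the tested members of the 46 lists, 1 point per gene and 1 line per list, with the lists ordered by their median (black bar). Lists of ribosome biogenesis (median 1.79), tRNA charging (1.51) and proteostasis lie at one end, and Tconv genes (-1.32), histones (-0.86) and quiescence regulators (-0.81) at the other.

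The same cells were measured at 2, 24 and 72 h, and these levels are given as a description, since all times share the 0 h arrays. Irf4 had 6.54 and 6.55 at 0 h, 11.48 and 11.27 at 2 h, 10.27 and 10.51 at 8 h, 8.34 and 8.75 at 24 h and 7.27 and 6.93 at 72 h. Il21 was at 4.52 and 4.87, 7.14 and 6.75, 9.49 and 9.70, 5.90 and 5.67, and 4.75 and 5.03 at those times, and thus was highest at 8 h on both numbers. Mcm2 had 9.00 and 8.66 at 0 h, 9.43 and 8.68 at 2 h, 11.07 and 10.73 at 8 h, 10.31 and 9.85 at 24 h and 9.29 and 8.73 at 72 h. Il7r had 11.12 and 11.68 at 0 h, 11.05 and 11.70 at 2 h, 7.28 and 7.38 at 8 h, 10.19 and 10.02 at 24 h and 9.60 and 10.13 at 72 h. It was thus near its resting level at 2 h, lowest at 8 h and below its 0 h values at both later times. Txnip had 12.22 and 12.16 at 0 h, 11.53 and 11.56 at 2 h, 9.63 and 9.17 at 8 h, 12.50 and 12.05 at 24 h and 12.21 and 11.91 at 72 h. On the 1 Tconv array taken 24 h after rat IgG, an antibody without this target, numbered 2, Il7r was at 11.83, Txnip at 12.47, S1pr1 at 11.94, Irf4 at 6.26 and Il2ra at 5.72, each closer to the 0 h than to the 8 h values.

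**Figure D4:**
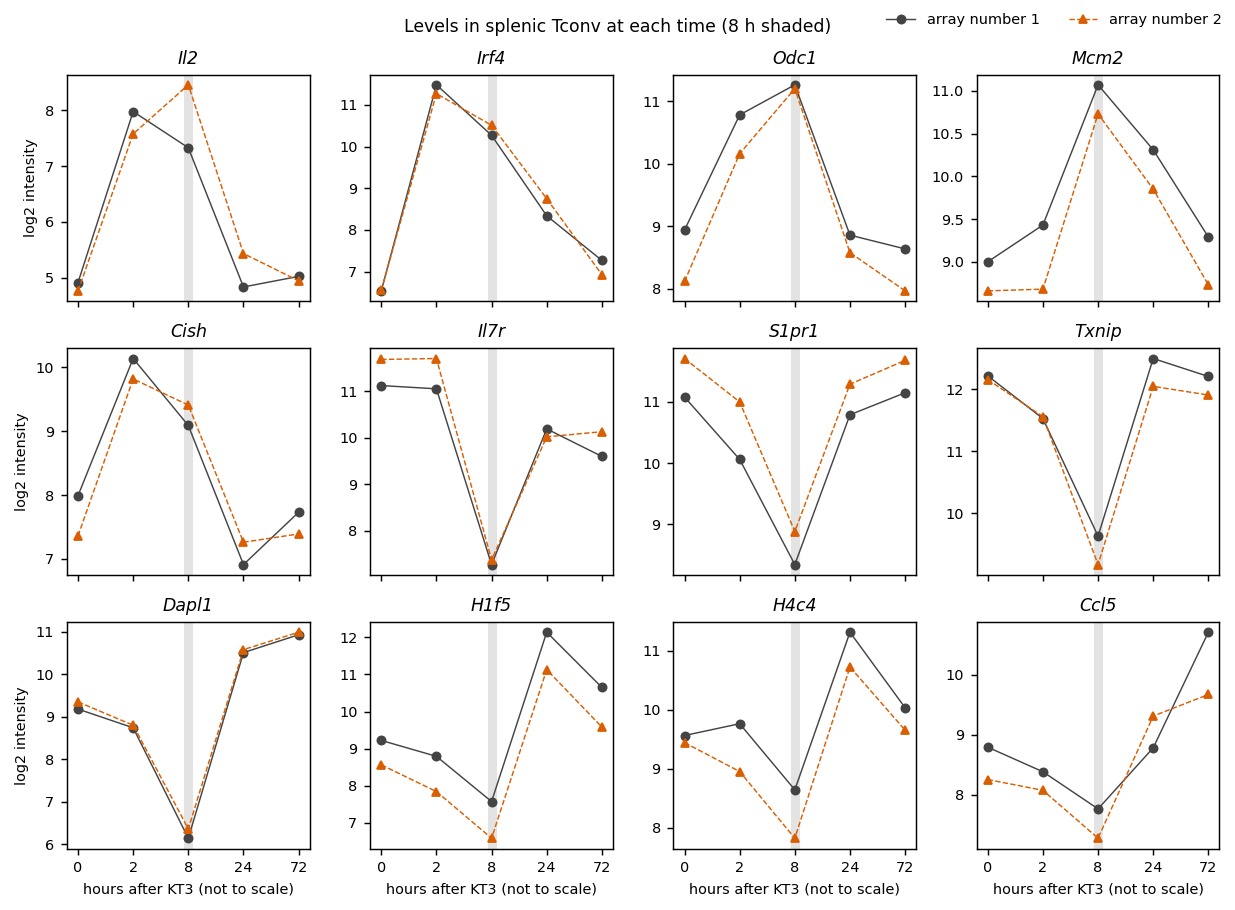
Log2 intensity (vertical axes, each panel with its own range) of 12 genes in splenic Tconv at 0, 2, 8, 24 and 72 h after KT3 (horizontal axes, not to scale); circles and solid lines are arrays numbered 1, triangles and dashed lines arrays numbered 2, and the 8 h arrays are shaded. Il7r, S1pr1, Txnip, Dapl1, H1f5, H4c4 and Ccl5 are lowest at 8 h, Odc1 and Mcm2 highest at 8 h, and Irf4 and Cish highest at 2 h.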

How the data were processed

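RNA of sorted splenic T cells was measured on Affymetrix ST1.0 gene arrays. Amplification, labelling and hybridization preceded RMA preprocessing in GenePattern, per the series design text, and the submitters' processing notes name RMA and Affymetrix Power Tools. Their versions, and the set of arrays normalized in 1 run, are not given in the sources used. The deposited values are RMA intensities on a linear scale (4.8403 to 29756.3596), 1 per transcript cluster and array. The design text speaks of averaged values, whereas each of the 42 arrays has a column of its own. Array medians were 91.2 and 89.0 at 8 h, against 103.3 and 97.5 at 0 h, with log2 interquartile ranges of 2.77 and 2.93 at 8 h, against 2.47 and 2.59 at 0 h. Differences of scale between arrays thus remain in the values.

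Of 24922 clusters 21425 had 1 gene symbol in the platform's gene table, 1399 had several and 2098 were not listed. Where 1 symbol had several clusters (921 of 19752 symbols), the brightest by mean level stood for the gene. A gene was tested where it exceeded the median of its array on 2 or more arrays, which held for 12425 genes and left out 7327. The log2 of each value was used, with no offset added. limma (3.58.1, R 4.3.3) fitted 22 group means over all 42 arrays with the array number within each setting as a block (18 residual and 5.72 prior degrees of freedom), and eBayes gave two-sided p-values with Benjamini-Hochberg adjustment. The fit was tested on simulated data. Python 3.11.15 with pandas 2.3.3 and matplotlib 3.10.9 made the summaries and plots.

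The pairing comes from the titles' numbers. The number 1 minus number 2 differences over genes correlated at 0.746 between 8 h and 0 h, and at 0.647 to 0.775 between all 10 pairs of the Tconv groups in mice. The block was shared with regulatory T cells, whose differences correlated less with those of Tconv: over all 45 pairs of groups in mice r lay between -0.171 and 0.775, with 32 over 0.1. A block within each cell type and setting was therefore added as an alternative.

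The comparison, the gene lists and the motifs were chosen with earlier results of these data known. Genes named in the text were the 15 largest rises, the 15 largest falls, up to 3 of the largest called changes in each direction of each list, and 123 genes added after their values were seen. Promoter windows ended at the annotated start, so that no transcribed bases were read, although a window of 50 further bases had been planned. Alternatives covered the block, the arrays in the fit, quantile normalization, median centring, an offset of 32, the filter on dim genes, the choice of cluster and each array left out in turn. In the last case 1 group has a single array, which is assumed to vary like the other groups.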

Additional observations from a re-analysis of the deposited data

Results flagged for a closer look

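Among the named genes, many of them added after their values were seen, 8 that fell at 8 h were higher at a later time than at 0 h by at least 1 on both array numbers, so that all samples moved one way at 8 h and the other way later. The other fallen genes were not searched. These opposite differences were not tested, and the comparisons share the 0 h arrays. Dapl1 differed from 0 h by -3.04 and -2.99 at 8 h, by 1.33 and 1.23 at 24 h (mean 1.28) and by 1.75 and 1.64 at 72 h (mean 1.69). Ccl5, a chemokine of memory and effector T cells, differed by -1.03 and -0.98 at 8 h and by 1.92 and 1.42 at 72 h (mean 1.67).

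Of the 8 histone clusters that fell, 5 were above 0 h by that margin at 24 h. H1f5 differed from 0 h by -1.65 and -1.99 at 8 h, by 2.92 and 2.57 at 24 h (mean 2.75) and by 1.43 and 1.02 at 72 h (mean 1.23). H4c4 differed by -0.92 and -1.62 at 8 h and by 1.75 and 1.28 at 24 h (mean 1.52). H1f1 differed by -1.08 and -0.94 at 8 h and by 3.04 and 2.48 at 24 h (mean 2.76). For H2bc3 the means were -1.01 at 8 h and 3.03 at 24 h, and for H2bc14 -0.90 at 8 h and 2.37 at 24 h. H1f2, the largest histone fall, was not above 0 h at 24 h, at 8.72 and 8.49 there, against 8.85 and 9.64 at 0 h. Which histone copy a cluster reads is uncertain, and the 8 h calls of H1f1, H2bc3 and H2bc14 were lost without at least 1 of the arrays.

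Ifi214, of the Ifi200 family, differed from 0 h by -2.46 and -1.78 at 8 h and by a mean of 1.27 at 72 h, and its 8 h call was lost without the 8 h array numbered 1.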

How the results depend on the processing

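The count of 2992 called genes moved by more than 1.5 times with only the 22 in vivo arrays (4525) or the 11 Tconv in vivo arrays (6036) in the fit. Leaving out a single in vitro array, that of Tconv at 0 h numbered 1, gave 4170, with 2719 higher and 1451 lower. With the 11 Tconv in vivo arrays 3439 genes were called higher and 2597 lower, and with the 22 in vivo arrays 1635 were called lower. Median centring left 557 of the 970 falls. Without 1 of the 4 arrays the counts ranged over 1759 to 2023 in all, 1228 to 1468 higher and 531 to 574 lower, with fewer samples by construction. The fit with no replicate block called 2607 genes, 1794 higher and 813 lower, and the block within each cell type and setting, an alternative added after seeing the data, called 3452, with 2308 higher and 1144 lower. Of 300 named genes 283 were called, 95 of which lost the call in at least 1 setting: 23 with no replicate block, 23 after quantile normalization, 31 after centring, 64, 77, 65 and 64 without the 8 h arrays numbered 1 and 2 and the 0 h arrays numbered 1 and 2, and 13, 4, 2 and 1 with no filter, the sort as a block, the most variable cluster and the offset. Calls were gained 26 times, in Mki67, Foxp3, Ubtf, Fos, Foxo1, Tob1, Ccr7 and Cxcr3. None of the 283 turned its direction in any of these settings. A pair of arrays per group, dim values and unequal array scales limit all counts.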

Other observations

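Further gene families, taken by the start of their symbols after the values were seen, were read beside the 16.3% of all tested genes that rose and the 7.81% that fell. Genes for transport between nucleus and cytoplasm held rises. Of 19 importins and exportins 14 rose and none fell (median 1.10), and of 19 nucleoporins 13 rose and none fell (median 0.94). Kpna2, an importin that carries cargo with nuclear localization signals, had 10.21 and 10.07 at 8 h, against 8.06 and 7.64 at 0 h, and rose by 2.28 (SE 0.26, adjusted p = 8.74e-07 by limma), with Ipo4 and Ipo5 at rises of 2.01 and 1.80. All 5 tested genes for RNA polymerase I subunits with symbols that start with Polr1 rose (median 1.27), led by Polr1b (2.06). Of 23 subunits of the mitochondrial import machinery 18 rose (median 0.97). Of 7 protein arginine methyltransferases 4 rose (median 0.94), among them Prmt1 (1.97), Prmt5 (1.41) and Prmt7 (1.32).

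Several families of innate defence and of the cell surface held falls. Of 8 guanylate binding proteins 5 fell and none rose (median -1.61), and Gbp8 had 6.99 and 7.54 at 8 h, against 9.05 and 9.10 at 0 h, and fell by 1.81 (SE 0.35, adjusted p = 0.000448), while Gbp2b and Gbp5 did not pass, with differences of 0.02 and 0.21. Of 6 Ifi200 genes 5 fell (median -2.05), but 1 of them, Ifi203, was called without each single array, and since these genes are close relatives, which copy a cluster reads is uncertain. Ddx58, the cytosolic RNA sensor RIG-I, had 7.47 and 7.39 at 8 h, against 10.05 and 9.93 at 0 h, and fell by 2.56 (SE 0.37, adjusted p = 1.89e-05). It was the 1 call among 3 RIG-I like receptors, since Ifih1 and Dhx58 did not pass, with differences of -0.74 and -0.59. Ddx58 had been planned for the list of interferon-stimulated genes under another name and is missing from the counts of that list. The Toll-like receptors Tlr6 and Tlr1 fell by 1.80 and 1.34, 2 of 5 tested. Of 4 alpha-2,8 sialyltransferases 3 fell: St8sia4, St8sia6, which fell by 2.41, and St8sia1, which fell by 1.57. Of 7 DOCK exchange factors, which activate Rac and Cdc42 in migrating lymphocytes, 3 fell and none rose (median -1.12), and Dock2 had 9.05 and 8.99 at 8 h, against 10.73 and 10.88 at 0 h, and fell by 1.78 (SE 0.29, adjusted p = 6.88e-05). The cholesterol exporter Abcg1 fell by 2.19 (SE 0.30, adjusted p = 1.12e-05), 1 of 8 falls and 4 rises among 27 ABC transporters (median -0.10).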
